A study of Homo sapiens with 6 samples.

Results

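The histone genes described here are the rows of the deposited count table whose symbol starts with H1, H2A, H2B, H3 or H4, followed either by C and digits or by a hyphen and digits. The rule used names only and found 79 of the 22354 loci in the table. Of these, 64 carry a C number (H2AC6, H4C15) and 15 carry a hyphen (H1-2, H3-3A), and the 2 classes were described apart. The counts came from bulk RNA-seq of HTori-3.1, a human thyroid follicular epithelial line kept in culture as a normal thyroid model. There were 3 libraries labelled control, of wild type genotype, and 3 labelled BMAL1 knockout, called here control libraries and knockout-labelled libraries. All 6 were from cells given etoposide at 2 μM, a topoisomerase II inhibitor that breaks DNA. The treatment field of the labels gives the exposure as 12 h, whereas the methods give 24 h. The knockout was made with lentiviral CRISPR-Cas9 and an sgRNA, and clones were picked after puromycin selection, so that a difference between the groups and a difference between clones cannot be told apart. Whether the control cells carried a guide of their own is not given in the sources used here. Nothing says that the replicates were separate cultures, so p-values measure only the spread between these libraries, which may be technical.

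Histones are the proteins around which nuclear DNA is wound. Most C-numbered genes are replication-dependent: they lie in clusters, lack introns, are transcribed mainly in S phase, and give mRNAs that end in a conserved stem-loop instead of a poly(A) tail. The stem-loop is bound by SLBP, which directs the cut that forms the 3′ end. Replacement histones such as H3-3A and H3-3B are made throughout the cell cycle from polyadenylated mRNAs. A library made by poly(A) capture therefore under-represents the first kind. Whether poly(A) capture or rRNA depletion was used is not given in the sources used here, so levels of the 2 kinds of histone mRNA cannot be compared as amounts of RNA in the cell.

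The targeted gene was measured first. BMAL1 (ENSG00000133794.20, chromosome 11 of hg38, 13276652 to 13387266, forward strand) had 11.3, 12.2 and 14.6 CPM (CPM being TMM-normalized counts scaled to a common library total) in the control libraries, and 17.9, 19.8 and 19.4 CPM in the knockout-labelled libraries. The transcript was therefore more abundant where the label says knockout, with no overlap between groups. The methods describe a western blot check of the picked clones, and protein was not analysed here. By edgeR's quasi-likelihood test the log2 fold change was 0.58, with a standard error of 0.11 and an adjusted p = 0.0238 (Benjamini-Hochberg). Leaving out a library at a time moved this adjusted p between 0.0154 and 0.129, and it passed 0.05 in 2 of 6 refits, without control replicate 3 and without knockout replicate 1. Every direction below compares the knockout-labelled libraries with the control libraries.

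Markers of the labelled cell type were present in part. Of the thyroid follicular markers, the transcription factors PAX8 and FOXE1 were measured, at 133 ± 15.4 and 48.0 ± 0.717 CPM (SD, n = 3) in control libraries, and at 110 ± 19.1 and 40.0 ± 3.29 CPM (SD, n = 3) in knockout-labelled libraries. NKX2-1 was at 0 in every library, and TG, TSHR and SLC5A5 were below the low-count filter. Among the epithelial markers, the keratins KRT8 and KRT18 were abundant. KRT18 was lower (log2 fold change -0.50, adjusted p = 0.00587, edgeR). KRT8 stood at 1408 ± 41.4 and 1157 ± 8.11 CPM (SD, n = 3), without overlap (log2 fold change -0.28, adjusted p = 0.0517, edgeR). EPCAM was under 1 CPM in every library, and CDH1 was below the filter. The mesenchymal marker VIM, also common in cultured epithelial lines, stood at 1820 ± 38.4 and 1538 ± 28.7 CPM (SD, n = 3), and COL1A1, the other mesenchymal marker tested, at 860 ± 77.9 and 859 ± 141 CPM (SD, n = 3), with overlap, while COL1A2 and PDGFRA were below the filter. The immune marker PTPRC was lower, at 6.40 ± 0.145 against 2.36 ± 0.341 CPM (SD, n = 3), while CD3E was at 0 in every library. The 3 immune markers summed to 18.9, 19.4 and 17.25 CPM, then 13.7, 11.3 and 12.0 CPM, and CD68 was the most abundant. The part of these differences in the histone values was not tested.

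The members share a 3′ feature that the naming rule did not use. Within 150 bases after the stop codon, a stem-loop of 16 bases with at most 2 mismatches to the histone consensus was found in 63 of the 64 C-numbered genes, the exception being H2BC12L on chromosome 21. It was found in 8 of the 15 hyphenated genes, namely H1-1 to H1-6, H3-4 and H3-7. Among 19939 other genes searched in the same way, 29 had a match, which is 0.145%. The sequences below, read from hg38, are those of members whose levels are described later, with the stem-loop in capitals and 5 flanking bases on each side in lower case.

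H2AC6: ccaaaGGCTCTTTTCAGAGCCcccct
H2BC12: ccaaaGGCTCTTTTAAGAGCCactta
H3C6: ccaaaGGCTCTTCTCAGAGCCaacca
H4C15: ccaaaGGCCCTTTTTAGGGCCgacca
H1-2: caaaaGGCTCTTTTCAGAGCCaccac

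On chromosome 6 they span 26124664 to 26124689 on the forward strand (H2AC6), 27146361 to 27146386 on the reverse strand (H2BC12), 26225591 to 26225616 on the forward strand (H3C6) and 26055739 to 26055764 on the reverse strand (H1-2), and on chromosome 1 149860764 to 149860789 on the reverse strand (H4C15), with each stem-loop in the 3′ UTR; the last flanking base of H1-2 lies past the annotated end of the gene. H3C6 and H4C15 each differ from the consensus at 1 base. H1-2 is a linker histone whose name has a hyphen but whose gene carries the stem-loop, so the hyphen does not separate the 2 kinds of mRNA.

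Promoters of 71 of the 79 members were in the RefSeq table (GRCh38.p14, 300 bases around each start; of several starts, the 1 nearest the annotated 5′ end). The octamer ATTTGCAT, on either strand, occurred in 14 of 18 H2B, 11 of 16 H2A, 0 of 11 H3 and 0 of 13 H4 C-numbered promoters, and in 1.77% of all 35116 promoters. The letters CCAAT occurred in every H2A, H2B and H3 C-numbered promoter but in 3 of 13 H4 promoters (23.1%), and in 34.6% of all. CACGTG, the E-box to which BMAL1 and CLOCK bind, occurred in 0 of the 71, and in 7.26% of all promoters. A match is a description of the letters in this window only.

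Control libraries held 26893063, 27029060 and 28513703 counts, and knockout-labelled libraries 43148059, 29860233 and 43563391. The members took between 0.107% and 0.123% of the counts. Many had few or no reads: 7 had no read in any library (H2AC1, H2BC1, H2BC10, H4C7, H4C13, H1-1 and H1-8), where 3 counts, the upper limit that a count of 0 allows, correspond to between 0.0677 and 0.112 CPM (counting error only). Since poly(A) capture may have been used, few reads do not show that a gene is silent. The low-count filter kept 38 members (32 C-numbered and 6 hyphenated) among 14860 loci, and the 41 members below it had at most 27 reads in any library.

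C-numbered genes with annotated transcripts that run on past the stem-loop had more reads. In 17 of the 64, a GENCODE v44 model ends at least 200 bases beyond it. Of these 17, 16 passed the filter, against 16 of the other 47. Their median level per length was 1.46 CPM per kb of exon, against 0.246 CPM per kb for the other 47, as a description with no test. The groups overlapped, since 7 of the 47 lay above the median of the 17, the highest being H2BC12, with 57.1 CPM per kb and a model that ends at the stem-loop. The 17 genes took 62.9% to 68.7% of the C-numbered counts in the 6 libraries. Exons of some genes in both groups overlap those of other genes, so their counts may include reads of the latter. Among the 17, H2AC6 overlaps ENSG00000291336 on the same strand and H2BC4 overlaps HFE on the opposite strand. The part of such reads in the levels was not tested. Among hyphenated genes, the 8 with a stem-loop had a median of 0.130 CPM per kb and the 7 without had 37.4 CPM per kb.

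**Figure D1:**
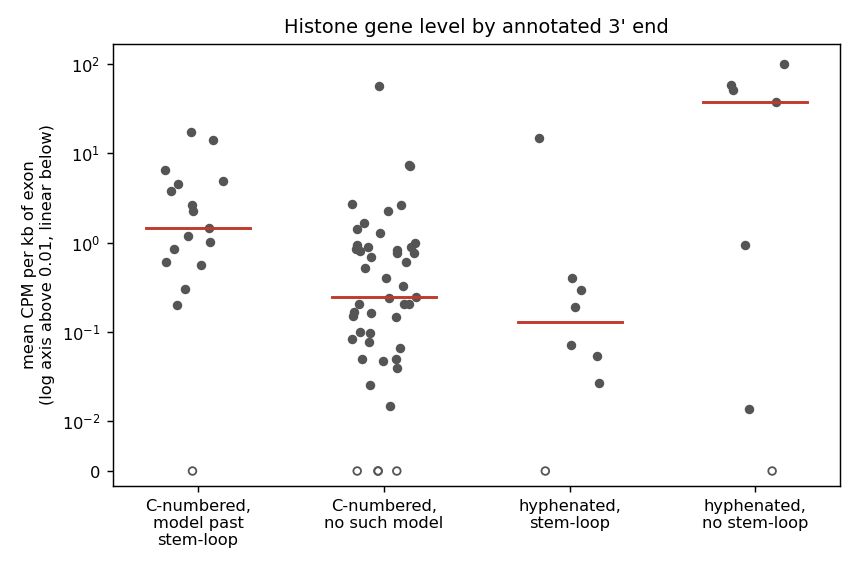
Mean level over the 6 libraries, in CPM per kb of exon (log axis above 0.01, linear below), of each of the 79 histone genes, by name class and annotated 3′ end. Points are genes, open points are genes at 0, and red lines are medians, which are 1.46 and 0.246 for the C-numbered groups and 0.130 and 37.4 for the hyphenated groups.

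No histone gene passed the test. At an adjusted p under 0.05, edgeR's quasi-likelihood test called 0 of the 38 members tested, where 2.37% of all 14860 loci were called (150 higher and 202 lower, a balance that turned to 175 higher and 155 lower with library size only); DESeq2 and limma-voom also called 0 members. At an unadjusted p under 0.05 there were 3 members by edgeR, all higher, 2 by DESeq2 and 3 by limma-voom, and 16.9% of all loci passed that limit in edgeR. The smallest adjusted p of a member was 0.0908, for H4C15. This count depended on 2 choices: when each library's trend with GC content was removed, 2 members were called, both higher, among them H4C15 (adjusted p = 0.0392, edgeR), where 7.01% of all loci were called, and without knockout replicate 1, 1 member of 42 was called, also higher, where 4.54% of all loci were. Neither share of members, 5.26% and 2.38%, was above that of all loci. With the GC trend removed and a replicate block, the shares were 5.26% of members and 5.20% of all loci. Over all alternatives the adjusted p of H4C15 ran from 0.0392 to 0.294 (edgeR, DESeq2 or limma-voom). Among the 38 members tested, groups did not overlap for 6 that were higher, where 11.8% of all loci were so. They did not overlap for 1 that was lower, where 11.5% of all loci were so.

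The median log2 fold change was 0.18 over the 32 C-numbered genes and 0.11 over the 6 hyphenated genes, against 0.0097 over all loci. Fold changes lay above 0 in 22 of the 32 and in 6 of the 6, and in 7773 of all 14860 loci. These values depended on single libraries: without knockout replicate 3 the C-numbered genes had a median of 0.0525, with 20 above 0 and 13 below, and without control replicate 3 a median of 0.29, with 27 above and 9 below. Of the hyphenated genes that passed the filter in each refit, 2 lay below 0 without control replicate 2, and 1 without control replicate 1 or without knockout replicate 3. With the trend with gene length removed, 19 C-numbered genes lay above 0 and 13 below. The 95% interval of the fold change lay within 1 log2 unit of 0 on both sides for 29 of the 38, and within 0.5 for 11. Precision followed depth: the median width of the interval was 0.54 log2 units for the 12 members at or above 5 CPM and 1.17 for the 26 below. With 3 libraries a group, the smallest p of an exact permutation test is 0.1.

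**Figure D2:**
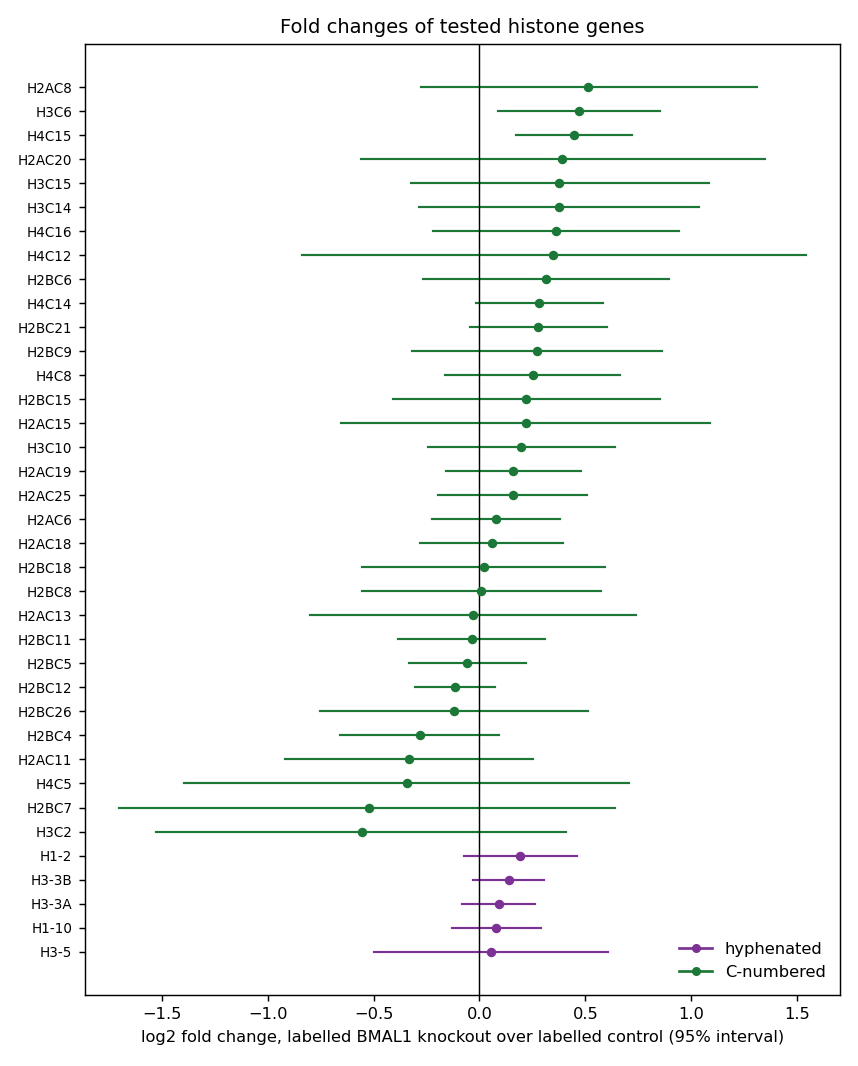
Log2 fold change (labelled BMAL1 knockout over labelled control, x axis) with its 95% interval for tested histone genes, C-numbered in green and hyphenated in purple. Of the genes shown, H4C15 and H3C6 have an interval that excludes 0, both higher, and none has an adjusted p under 0.05.

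Of the core histones, H4 is the partner of H3 in the nucleosome. H4C15 (ENSG00000270276.3, chromosome 1, 149854045 to 149861159, reverse strand) had 7.19, 7.33 and 8.78 CPM in control libraries and 10.5, 9.76 and 11.5 CPM in knockout-labelled libraries. All 3 of the latter lay above all 3 of the former. Its log2 fold change was 0.45 (SE 0.13, 95% interval 0.17 to 0.72, adjusted p = 0.0908, edgeR). H4C14 (ENSG00000270882.3) had 7.05, 8.002 and 7.82 CPM, then 10.2, 7.60 and 9.84 CPM, and knockout replicate 2 lay within the control range. The 2 genes are near-identical copies, since 94.9% of the 100-base windows of H4C14 also occur in H4C15. The counts are described as from reads that mapped to 1 place, so reads of shared sequence may be missing. How reads of the 2 genes were counted is therefore uncertain. Their summed level was 15.4 ± 1.18 and 19.8 ± 2.11 CPM (SD, n = 3), with no overlap between groups. H4C8 gave 2.42, 2.69 and 3.54 CPM, then 3.19, 3.11 and 3.95 CPM, and its groups overlapped.

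H3C6 (ENSG00000274750.3, chromosome 6, 26224199 to 26227473, forward strand), a replication-dependent H3 gene, had 2.24, 2.54 and 2.07 CPM in control libraries and 2.83, 3.37 and 3.32 CPM in the others. The groups did not overlap. The log2 fold change was 0.47 (SE 0.17, 95% interval 0.089 to 0.85, adjusted p = 0.193, edgeR). H3C10 ran from 1.93 to 3.32 CPM in control libraries and from 2.91 to 3.28 CPM in the others, so that the former range held the latter. H3C14, which shares 99.1% of its 100-base windows with other genes, chiefly H3C15, was under 1 CPM in every library.

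H2A and H2B form the dimers that flank the H3 and H4 core. H2BC12 (ENSG00000197903.8, chromosome 6, 27146361 to 27146855, reverse strand) had the highest CPM of the C-numbered genes, with 28.4, 30.6 and 29.1 CPM, then 28.3, 26.3 and 26.7 CPM. It was the 1 member tested whose knockout-labelled libraries all lay lower, by a margin smaller than the spread within either group. Its log2 fold change was -0.12 (95% interval -0.30 to 0.072, adjusted p = 0.536, edgeR). H2AC6 (ENSG00000180573.10) had 19.6, 21.3 and 27.2 CPM, then 26.8, 20.1 and 24.9 CPM, with both groups spread over the same range and a log2 fold change of 0.079 (95% interval -0.22 to 0.38). H2BC5 had 14.7, 13.8 and 17.5 CPM, then 15.9, 12.6 and 15.5 CPM, again with overlap. H2BC21 had 7.98, 7.18 and 7.89 CPM, then 7.73, 9.01 and 11.2 CPM, of which knockout replicate 3 stood highest and knockout replicate 1 lay within the control range. H2AC25 ran from 3.77 to 5.64 CPM in control libraries and from 5.01 to 5.20 CPM in the others. H2AC18, which shares every 100-base window with its copy H2AC19 or with H2AC20, had a log2 fold change of 0.059 (95% interval -0.28 to 0.40).

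**Figure D3:**
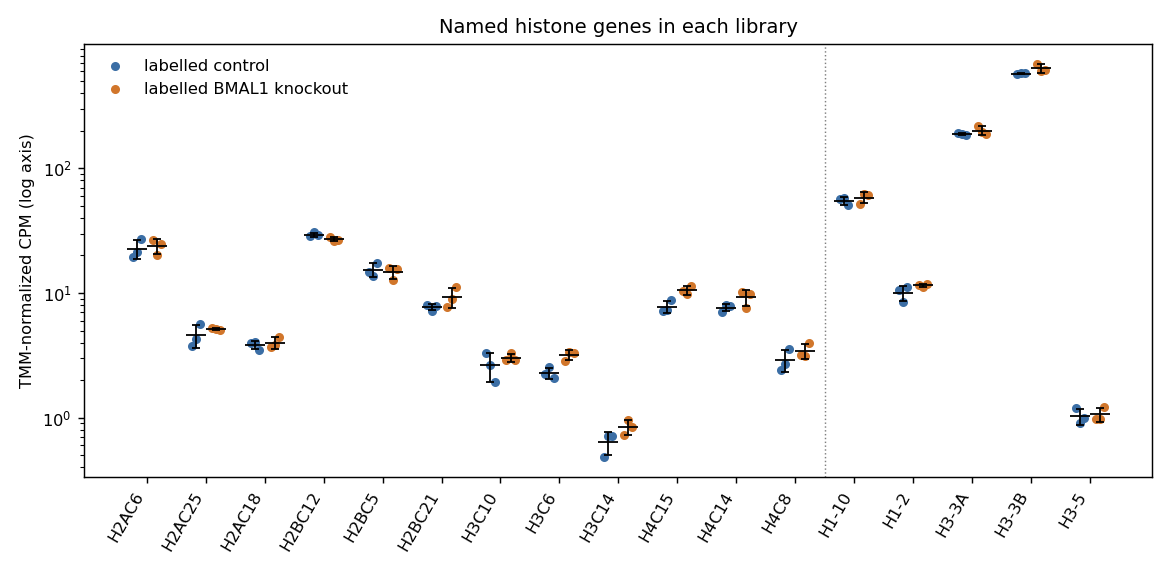
TMM-normalized CPM (log axis) of named histone genes in each library, C-numbered to the left of the dotted line and hyphenated to the right. Points are libraries (blue for labelled control, orange for labelled BMAL1 knockout), and black marks are the mean and SD of 3 libraries. The blue and orange points of H4C15 and H3C6 do not overlap, and those of H2AC6 and H2BC5 do.

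Linker histones bind the DNA between nucleosomes. H1-10 had 57.2, 57.6 and 50.6 CPM, then 51.4, 62.2 and 61.2 CPM, and shares exon sequence with the antisense gene H1-10-AS1. Knockout replicate 1 was the lowest of its group, and it lay within the control range. H1-2 had 10.5, 8.49 and 11.1 CPM, then 11.6, 11.1 and 11.7 CPM, and the groups overlapped.

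H3-3A and H3-3B encode the same replacement histone, H3.3, which is placed on DNA without need of replication, throughout the cell cycle. H3-3B (ENSG00000132475.10, chromosome 17, 75776434 to 75785893, reverse strand) was the most abundant member per length, at 98.7 CPM per kb, with 566, 577 and 586 CPM, then 692, 601 and 611 CPM. All 3 knockout-labelled libraries lay higher, with knockout replicate 1 well above the rest. The log2 fold change was 0.14 (95% interval -0.029 to 0.31, adjusted p = 0.390, edgeR), and it was 0.0703 without knockout replicate 1. H3-3A had 191, 187 and 187 CPM, then 219, 195 and 187 CPM, and knockout replicate 1 was again the highest. H3-3B overlaps UNK on the opposite strand and H3-3A overlaps H3-3A-DT, and strandedness is not given in the sources used here, so their counts may include reads of these genes. H3-3B took 74.8% to 76.6% of the counts on the 2 genes in every library, with overlap between groups. H3-5, a retrotransposed H3.3 gene, was at 0.898 to 1.22 CPM, with a log2 fold change of 0.056 (95% interval -0.50 to 0.61).

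Summed over members, C-numbered genes gave 132, 133 and 150 CPM in control libraries and 148, 139 and 154 CPM in knockout-labelled libraries, which overlapped (138 ± 10.3 and 147 ± 7.57 CPM, SD, n = 3). Hyphenated genes gave 939, 951 and 952 CPM, then 1095, 1019 and 1025 CPM, without overlap (947 ± 7.18 and 1046 ± 42.4 CPM, SD, n = 3). The log2 ratios of these means were 0.086 and 0.14, and without a library at a time the former ran from 0.0508 to 0.15. By family, the ratio for C-numbered genes was 0.34 for H4, 0.30 for H3, 0.094 for H2A and -0.028 for H2B. The values for H2A and H2B rested on single libraries, since without a library at a time they ran from 0.0165 to 0.20 and from -0.0645 to 0.0302. Those for H4 and H3 ran from 0.296 to 0.415 and from 0.219 to 0.370. The H4 sums did not overlap between groups (19.6 to 22.8 CPM, then 24.4 to 28.2 CPM). Nor did the H3 sums, by a narrow margin (6.36 to 7.90 CPM, then 7.94 to 9.47 CPM), whereas those of H2A and H2B overlapped. The 13 C-numbered genes on chromosome 1 had a summed log2 ratio of 0.25 (0.191 to 0.312 without a library at a time), with no overlap between groups. The 55 members on chromosome 6, the H1 genes there included, had 0.024, with overlap. This value turned to below 0 in 2 of 6 refits without a library (lowest -0.0137). On chromosome 1, 6 of the 13 share at least 50% of their 100-base windows with another gene. Over all C-numbered genes the ratio was 0.29 for the 14 that do (0.237 to 0.329 without a library at a time). It was 0.035 for the 50 that do not (-0.00149 to 0.11 without a library at a time). The part of shared sequence in the contrast between chromosomes was not tested. No p was computed for these sums. C-numbered genes made up 12.8 ± 0.776% and 12.3 ± 0.633% of all member counts (SD, n = 3). In bulk RNA, the share of cells in S phase and the amount of histone mRNA in each cell cannot be told apart.

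**Figure D4:**
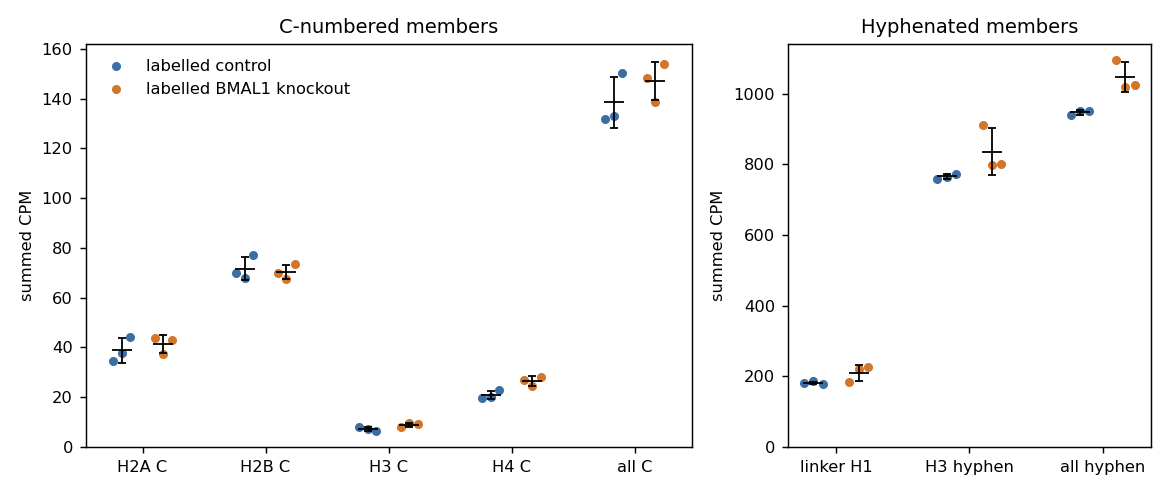
Summed CPM of C-numbered genes by family (left) and of hyphenated genes by family (right) in each library, with axes from 0. Points are libraries (blue for labelled control, orange for labelled BMAL1 knockout) and black marks are the mean and SD of 3 libraries; the sums of all C-numbered genes overlap between groups (138 and 147 CPM on average) and those of all hyphenated genes do not (947 and 1046 CPM).

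Histone variants outside the naming rule, factors that make or carry histones, and S phase genes were read from lists of their own. Of 7 variants tested, 0 were called by edgeR's quasi-likelihood test, with 2 at an unadjusted p under 0.05, both higher, where 2.37% of all loci were called and 16.9% passed the unadjusted limit. Groups did not overlap for 4 of the 7, all higher, where 11.8% of all loci were so. MACROH2A2, a macroH2A variant, had 22.1 ± 3.29 and 30.5 ± 1.38 CPM (SD, n = 3), without overlap (log2 fold change 0.47, adjusted p = 0.0539, edgeR). H2AZ1 had 518, 530 and 544 CPM, then 754, 523 and 497 CPM, so that knockout replicate 1 alone stood above the controls. MACROH2A1 had a log2 fold change of 0.0052 (95% interval -0.15 to 0.16). Among 5 genes listed for histone gene transcription, 0 were called and 0 had an unadjusted p under 0.05 (2.37% and 16.9% of all loci), and GON4L and CASP8AP2, the most abundant, had log2 fold changes of -0.026 and 0.15. Of 13 genes of 3′ end processing and decay, 0 were called and 2 had an unadjusted p under 0.05, both higher (2.37% and 16.9% of all loci). SRRT, which acts with the cap-binding complex, gave -0.079, and NCBP1, a subunit of that complex, gave -0.041. Of 18 chaperones, 0 were called and 2 had an unadjusted p under 0.05, both lower (2.37% and 16.9% of all loci). SUPT16H, a subunit of the FACT complex, was one of these, with 431, 444 and 459 CPM, then 409, 379 and 379 CPM and no overlap (log2 fold change -0.19, adjusted p = 0.191, edgeR). NAP1L1, an H2A and H2B chaperone, gave 0.012.

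Of 43 S phase genes, 0 were called by edgeR's quasi-likelihood test and 5 had an unadjusted p under 0.05, all higher, where 2.37% of all loci were called and 16.9% passed the unadjusted limit. PCNA, the sliding clamp of DNA polymerase, had 379, 397 and 425 CPM, then 574, 423 and 429 CPM. Knockout replicate 1 stood far above the other libraries, and knockout replicate 2 lay within the control range. RRM2, a subunit of ribonucleotide reductase, had 352, 366 and 377 CPM, then 418, 391 and 399 CPM, without overlap (log2 fold change 0.14, adjusted p = 0.331, edgeR). The summed level of the list was 6057 ± 217 and 6298 ± 353 CPM (SD, n = 3), and its highest library was knockout replicate 1, as for H3-3A, H3-3B and H2AZ1. None of 6 named RNAs without a poly(A) tail, such as RN7SK and TERC, was among the 22354 loci.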

How the data were processed

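Bulk RNA-seq of 6 HTori-3.1 libraries was analysed. The values the authors deposited are raw integer counts, from reads that mapped to 1 place; the submitters' processing notes name fastp 0.20.1, HISAT2 2.0.4 and hg38. The annotation and strandedness are not given in the sources used here. Under R 4.3.3, edgeR 4.0.16 was used for TMM scaling, CPM, fold changes and two-sided quasi-likelihood tests (robust, default low-count filter, no separate dispersion step), adjusted by Benjamini and Hochberg over 14860 loci. Standard errors and intervals came from the F statistic. GENCODE v44 and hg38 gave exons, stem-loops and shared windows. DESeq2 1.42.0 and limma 3.58.1 were alternatives; the fits were tested on simulated data. Named members were any called, the 3 highest by mean CPM in each C-numbered core family, and every hyphenated gene tested; from each other list, called genes and the 2 highest by mean CPM. S phase genes came from Seurat 5.3.0. The members and lists were chosen with earlier results of these data known. Other genes named were chosen after their values were seen. Some items, 1 tested member among them, are not reported here or drawn by name; counts and sums include them.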

Additional observations from a re-analysis of the deposited data

How the results depend on the processing

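Over all loci, 352 calls became 216 with a replicate block (97 higher and 119 lower), 635 with DESeq2 (which tested 19440 loci, under another low-count filter), 1041 with the GC trend removed, 773 with the GC trend removed and a replicate block, and 136 at a fold over 2 with an unadjusted p under 0.01 (84 higher and 52 lower). Without each library in turn they ranged from 104 (without control replicate 2) to 683 (without knockout replicate 1). A separate dispersion step before the quasi-likelihood fit, an alternative chosen after seeing the data, gave 373 calls (161 higher and 212 lower) and 0 histone calls; the choice between the 2 fits was made with both counts known. No pairing by replicate number was seen: deviations of same-numbered libraries correlated at -0.0896, -0.0518 and -0.00471. Those of differently numbered libraries correlated at -0.0469 to 0.102. These values cannot show whether same-numbered libraries were handled together.

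Histone calls stayed at 0 with a replicate block and became 2 of 38 (5.26%) with the GC trend removed, with or without the block, where 5.20% (with) and 7.01% (without) of all loci were called. Leaving out a library gave 0 to 1. GC content could be assigned to 91.4% of tested loci, and the cause of the difference was not tested. The summed C-numbered log2 ratio of 0.0856 became 0.18 as the median over members, and 0.0508 to 0.15 without a library. Without the most abundant member, H2BC12, the summed ratio was 0.135. Refits of the family and chromosome sums, and of the sums with and without shared windows, were chosen after seeing the data.

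Directions of 29 named genes were kept in 503 of 522 refits, and 19 turned, H2AZ1 (0.16) among them without knockout replicate 1. Across the refits without a library, the log2 fold change ran from -0.0185 to 0.23 for H2AC6, -0.0400 to 0.13 for H2AC18, -0.13 to 0.0526 for H2BC5, -0.0665 to 0.17 for H3-5, -0.0584 to 0.27 for H2AZ1, -0.0193 to 0.0250 for MACROH2A1, -0.0538 to 0.0154 for GON4L and -0.0548 to 0.0728 for NAP1L1. With the sign kept, it ran from 0.0703 to 0.18 for H3-3B, 0.0839 to 0.24 for CASP8AP2, -0.13 to -0.0248 for SRRT and -0.0905 to -0.0138 for NCBP1. It turned for H2AC18 with the length trend removed (-0.00697), H3-5 after thinning (-0.0457), GON4L with library size only (0.00364) and NAP1L1 with the GC trend removed (-0.0400, and -0.0398 with a replicate block), and H2BC12 moved to -0.19 with the length trend removed. SUPT16H was called, lower, without knockout replicate 1 (adjusted p = 0.0336) and with the GC trend removed (adjusted p = 0.0306, edgeR), but not with the GC trend removed and a replicate block (adjusted p = 0.0650). Thin counts limit most C-numbered genes, since 25 of the 32 tested were below 5 CPM.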
